A study of Mus musculus with 8 samples.

Results

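Macrophages that meet bacteria make small mediators with enzymes, and an arginine transporter, encoded by 6 genes examined here: Nos2, Acod1, Ptgs2, Ptges, Ch25h and Slc7a2. Their open chromatin was described in macrophages grown from mouse bone marrow, from the peaks of 8 ATAC-seq libraries. ATAC-seq marks open chromatin by letting a transposase insert sequencing adapters where the DNA can be reached. Peaks of the 8 libraries that shared at least 1 base were merged into 87260 regions, and a region belonged to a gene when that gene's body was the nearest protein-coding one within 100 kb (RefSeq, GRCm38). By this rule 52 regions belonged to the 6 genes: 14 to Acod1, 12 to Ch25h, 11 to Ptgs2, 8 to Slc7a2, 4 to Ptges and 3 to Nos2. No other gene was equally near to any of them. The rule uses position alone, so a region does not show which gene it acts on.

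Groups were wild-type (WT) and Nfat5 KO cells, either not treated or given E. coli lipopolysaccharide (LPS), a cell-wall molecule that macrophages sense, at 0.3 ng/ml for 2 h. Each of the 4 groups had 2 libraries. All cells had been cultured for 7 days in 25% medium from L929 cells, which supplies the growth factor M-CSF. NFAT5 is a transcription factor of the response to high salt that also acts in macrophages. The labels do not say how Nfat5 was deleted, in which strain, or at what age and sex the mice were used. Nor do they say whether the 2 libraries of a group came from separate animals. The p-values therefore rank differences between these libraries only and may not extend to other animals.

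The products of these genes form 4 short pathways. NOS2 makes nitric oxide from arginine, and SLC7A2 (CAT2) carries arginine into the cell. ACOD1 turns an intermediate of the citric acid cycle into itaconate, which acts on metabolism and on bacteria. PTGS2 (cyclooxygenase) makes the precursor of prostaglandins from arachidonic acid, and PTGES converts that precursor into prostaglandin E. CH25H makes 25-hydroxycholesterol, an oxysterol with antiviral and sterol-lowering effects. Genes of this kind are known for strong induction by bacterial products in macrophages.

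Sequence windows at RefSeq start sites (GRCm38.p6), with the 250 bases before and 50 bases after the site, were available for 4 of the 6 genes. The set used held no window for Nos2 or Slc7a2, so their start sites were not placed here. Of these 4 windows, that of Acod1 lay in a region called in all LPS libraries and 1 untreated library, those of Ptgs2 and Ch25h lay in regions called in all 8, and that of Ptges lay in no called region. The first 3 are shown because they set the gene whose start region was called in 5 libraries beside the 2 whose start region was called in all 8. Capitals mark matches to a searched motif on either strand.

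Acod1, chr14:103046762-103047061, plus strand: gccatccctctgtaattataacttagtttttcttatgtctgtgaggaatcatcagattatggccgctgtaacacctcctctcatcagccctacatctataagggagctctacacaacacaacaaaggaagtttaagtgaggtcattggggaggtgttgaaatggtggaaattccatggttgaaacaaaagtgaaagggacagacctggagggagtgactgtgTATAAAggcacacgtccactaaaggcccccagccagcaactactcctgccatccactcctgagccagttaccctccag

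Ptgs2, chr1:150099781-150100080, plus strand: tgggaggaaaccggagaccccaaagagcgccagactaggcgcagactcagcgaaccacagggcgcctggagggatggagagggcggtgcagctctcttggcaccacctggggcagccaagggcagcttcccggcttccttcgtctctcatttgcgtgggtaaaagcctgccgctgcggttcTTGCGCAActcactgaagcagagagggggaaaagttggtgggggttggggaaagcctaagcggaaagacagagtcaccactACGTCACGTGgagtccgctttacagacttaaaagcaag

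Ch25h, chr19:34475099-34475398, minus strand: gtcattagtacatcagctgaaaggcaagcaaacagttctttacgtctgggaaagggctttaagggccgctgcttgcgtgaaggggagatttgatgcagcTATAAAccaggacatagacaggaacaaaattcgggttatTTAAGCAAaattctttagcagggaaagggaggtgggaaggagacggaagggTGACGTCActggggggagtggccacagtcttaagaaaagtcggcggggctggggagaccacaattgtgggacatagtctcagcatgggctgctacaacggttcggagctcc

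In Acod1 the capitals are a TATA box (TATAAA, bases -28 to -23 from the start site), a match that 13.6% of all 32851 RefSeq windows of this length held. In Ptgs2 they are a C/EBP site (TTGCNNAA, bases -69 to -62, held by 10.8% of windows) and a run where a cAMP response core (ACGTCA, bases 13 to 18, 7.51%) shares letters with an E-box (CACGTG, bases 17 to 22, 7.15%). In Ch25h they are a TATA box (bases -151 to -146), a C/EBP site (bases -112 to -105) and overlapping cAMP response cores on both strands (bases -61 to -54). Position 1 is the first base of the gene. Searched without a match in these 3 windows were the AP-1 site (TGANTCA, 7.81% of windows), the STAT site (TTCNNNGAA, 8.30%), the interferon-stimulated element (3.44%), the NF-kB consensus (8.46%) and the tonicity-response element of NFAT5 (4.96%). Of the 9 motifs, none had one in the Ptges window. A match is a description of the letters only.

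Across the series the lists held 54027 to 60117 peaks, covering 26.2 to 28.0 Mb in the 4 LPS libraries and 29.6 to 31.2 Mb in the untreated ones. The files give no counts, so depth is unknown, and absence from a list means only that no peak was called, not that the chromatin was closed. Peak width is the extent of the called signal, not its height. All 8 macrophage marker genes had a region called in all 8 libraries, with 16645 to 21069 called bases with LPS and 16894 to 20193 without. Another 39 genes were markers of 7 other cell types (lymphocytes of both lines, dendritic, mast and erythroid cells, neutrophils, fibroblasts). Of these, 13 had no region, Cd3e, Pax5, Cd79a, Elane and Gata1 among them. A region called in all 8 was held by 15, among them Cd3d, Cd4, Lck, Ms4a1, Ebf1, Klf1 and 4 of the 5 dendritic cell genes. Over the whole series 17182 genes had a region, of 21887 protein-coding ones listed. Called bases summed over these 39 genes were 18834 to 22313 with LPS and 22335 to 27866 without, and their part in the results was not tested. Nfat5 had 7 regions, 4 of them called in all 8 libraries, with 2140 to 2523 called bases in WT and 2273 to 3075 in KO. This does not check the deletion, whose position the labels do not give.

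More of the 52 regions were called in each LPS library than in the untreated libraries of the same genotype. Libraries called 47 and 38 of them in WT with LPS against 30 and 35 untreated, and 37 and 33 in KO with LPS against 27 and 29 untreated. Over both genotypes the groups overlapped, since KO LPS library 2 (33) lay below WT untreated library 2 (35). Called in more LPS than untreated libraries were 21 of the 52 (40.4%, against 20.6% of all regions). Called in more untreated than LPS libraries were 7 (13.5%, against 31.4%). Of the 52, 24 were called in all 8 libraries (46.2%, against 41.3% of all regions), 17 in 2 to 7 and 11 in a single library (21.2%, against 20.1%). WT LPS library 1 held 8 of these 11, which is 15.4% of the 52 regions against 2.97% of all regions, and its single calls lay at all of the genes but Nos2. Counts that rest on this library are therefore given without it as well. The plot of called width by region and library shows all 52.

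**Figure D1:**
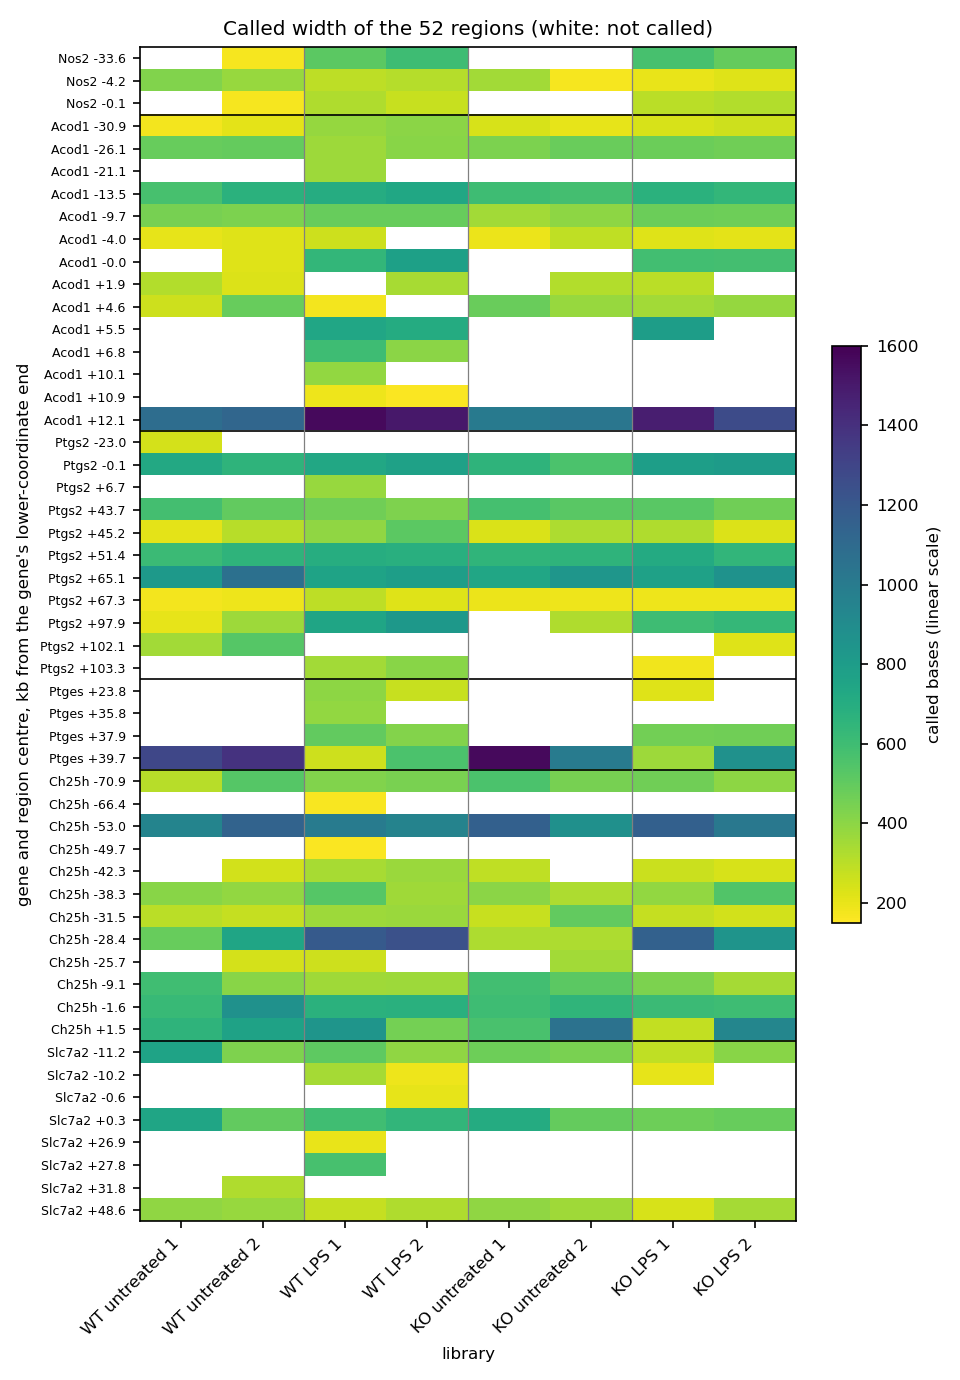
Called bases of each of the 52 regions (rows, named by gene and by the distance of the region's centre from the gene's lower-coordinate end in kb) in each of the 8 libraries (columns). White marks a region that was not called. The Nos2 regions at its end and 33.3 kb from it, the Acod1 region at its start and 1 Ptges region are filled in all 4 LPS libraries and nearly or wholly empty in the untreated ones.

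LPS was compared with no treatment in 2 ways. By calls, a region counted for LPS in a genotype when it was called in the 2 LPS libraries and in neither untreated one. In WT, 7 of the 52 regions did so (13.5%, against 3.96% of all regions): 3 at Acod1, 2 at Ptges and 1 each at Ptgs2 and Slc7a2. In KO, 4 did (7.69%, against 2.56%): 2 at Nos2 and 1 each at Acod1 and Ptges. The Ptges region was the only one in both sets. In the reverse direction, called untreated only, there was 1 region in WT (1.92%, against 5.06%), at Ptgs2, and there was none in KO (background 4.07%). A comparison of 2 libraries with 2 allows no p below 0.333, so these counts have none. With 1 library fewer the same rule calls more regions throughout. Without WT LPS library 1 the WT count was 8 (7.04% of all regions), without WT untreated library 2 it was 11 (5.99%), and without WT LPS library 2 it was 15 (8.61%), as the single calls of library 1 then enter. Without KO LPS library 2 the KO count was 8 (6.98% of all regions).

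By width, the called bases of each region (0 where not called) were compared over genotypes, 4 LPS libraries against 4 untreated. In 10 of the 52 regions every LPS value exceeded every untreated value (19.2%, against 3.01% of all regions): 4 at Acod1, 2 each at Nos2 and Ptgs2 and 1 each at Ptges and Ch25h. In 2 regions, at Ptges and Slc7a2, every LPS value lay below (3.85%, against 7.59%). Each of these 12 had the smallest two-sided exact permutation p that 4 against 4 allow, 0.0286, with an adjusted p of 0.270 over all 87260 regions, so none passed. The median of LPS minus untreated was 50.4 bases over the 52 regions and -45.2 over all regions. Leaving out a library can only add to such counts: there were 15 wider regions without KO LPS library 2, when 4.48% of all regions were. When widths were divided by the sequence each library's peaks covered (lower with LPS), 13 regions were wider and none narrower, against 7.18% and 3.24% of all regions.

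Nos2, the inducible nitric oxide synthase (chr11:78920787-78960226), had 3 regions, and 2 of them were called in all LPS libraries and 1 untreated one. The region over its lower-coordinate end (chr11:78920461-78920887) was 323 and 274 bases wide in WT with LPS and 301 and 317 in KO with LPS. Untreated, it was called in WT library 2 only, at 169 bases, among the narrowest peaks of that list. The groups did not overlap (303.75 ± 21.9 bases against 42.2 ± 84.5, SD, n = 4 libraries, exact permutation p = 0.0286, adjusted p = 0.270). Another region (chr11:78886849-78887454) lay 33.3 kb outside that end, in the stretch between Nos2 and its neighbour Lyrm9. It had 517 and 602 bases in WT with LPS, 574 and 490 in KO with LPS, and again 171 bases in WT untreated library 2 alone. LPS widths of the 2 genotypes interleaved at both regions, and no untreated KO library called either region. These narrow calls in 1 untreated library are why both regions counted for LPS in KO and not in WT; without WT untreated library 2 both counted in WT too.

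The remaining Nos2 region (chr11:78916339-78916888), 3.90 kb outside the same end, was called in all 8 libraries. It had 425, 371, 353 and 170 bases untreated and 292, 311, 200 and 222 with LPS, so the groups overlapped (exact permutation p = 0.257, n = 4). Nothing was called inside the gene body, which is 39440 bases long, except the part of the region over its end. Over the 3 regions, Nos2 had 1132, 1187, 1075 and 1029 called bases with LPS (WT libraries first) and 425, 711, 353 and 170 without. The LPS mean was 2.67 times the untreated one (1105.75 ± 68.6 against 414.75 ± 225 bases, SD, n = 4, exact permutation p = 0.0286, adjusted p = 0.184 over 17182 genes with a region). Within 25 kb of the gene only 2 regions remain, and the totals then overlapped.

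Slc7a2, the arginine transporter (chr8:40862341-40922070), had totals that overlapped between treatments (1194 to 2498 called bases with LPS, 1292 to 1896 without, exact permutation p = 0.829, n = 4). The region over its lower-coordinate end (chr8:40862270-40863109) was called in every library, with 745, 501, 710 and 494 bases untreated and 593, 648, 471 and 486 with LPS. These values overlapped (549.5 ± 85.2 with LPS against 612.5 ± 134 bases, exact permutation p = 0.429, n = 4). A region 10.1 kb outside that end (chr8:40851924-40852270) was called in both WT LPS libraries, at 347 and 184 bases, in KO LPS library 1, at 201, and in no untreated library. It lay 408 bases from a region called in all 8 libraries, the second widest at this gene (chr8:40850713-40851515, 286 to 761 bases). Inside the gene, chr8:40910738-40911206 had 357 to 390 bases untreated and 236 to 345 with LPS. It was narrower in all LPS libraries (294 ± 48.3 against 377.5 ± 15.8 bases, exact permutation p = 0.0286, adjusted p = 0.270, n = 4), but not relative to covered sequence. The other 4 regions were single-library calls of 197 to 574 bases, all in WT libraries and 2 of them in WT LPS library 1.

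**Figure D2:**
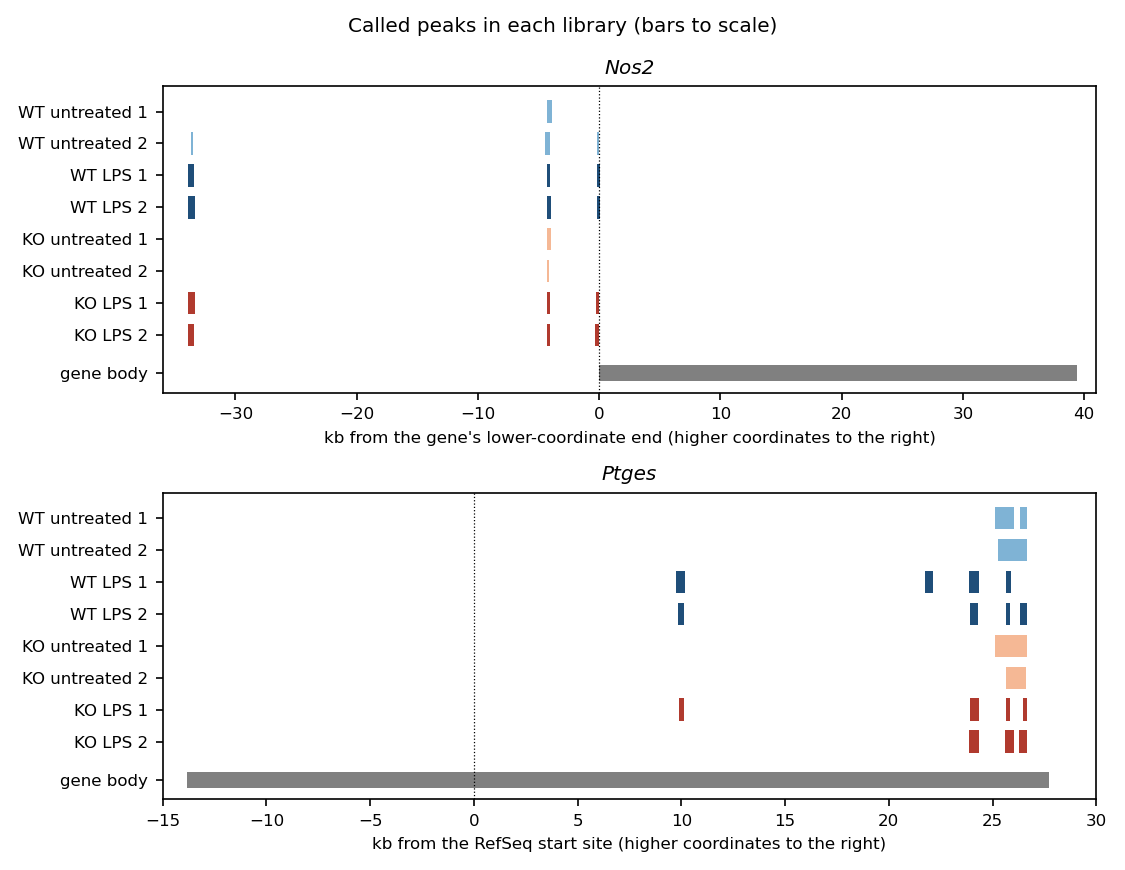
Called peaks (bars, to scale) in each of the 8 libraries against distance in kb from the lower-coordinate end of Nos2 (top) and from the RefSeq start site of Ptges (bottom), with the gene body in grey. At Nos2 all 4 LPS libraries have peaks at the gene's end and 33.3 kb from it; at Ptges, where upstream is to the right, they have a peak that no untreated library has, beside a stretch where their peaks are narrower.

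Acod1, which makes itaconate (chr14:103047012-103056573, plus strand), had 14 regions, of which 4 were wider in all LPS libraries than in all untreated ones. The region over its start site (chr14:103046622-103047398), which holds the Acod1 sequence printed above, was 642 and 777 bases wide in WT with LPS and 591 and 582 in KO with LPS. Untreated, only WT library 2 called it, at 221 bases, so it counted for LPS in KO but not in WT. The groups did not overlap (648 ± 90.0 against 55.2 ± 110 bases, SD, n = 4, exact permutation p = 0.0286, adjusted p = 0.270).

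The widest Acod1 region lay just past the gene, 1.74 kb from its end (chr14:103058308-103059874), and was called in all 8 libraries. It had 1562, 1509, 1476 and 1271 bases with LPS (WT first) and 1081, 1122, 1009 and 1032 without. The LPS mean was 1.37 times the untreated one (1454.5 ± 127 against 1061 ± 50.6 bases, exact permutation p = 0.0286, adjusted p = 0.270, n = 4). The difference lay at the side nearer to the gene. Untreated peaks began 404 to 529 bases into the region and LPS peaks 1 to 286 bases into it, while all 8 ended between bases 1525 and 1567.

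Between the start site and that region, WT cells with LPS had peaks that untreated cells lacked. The region chr14:103052075-103052902, inside the gene, had 742 and 710 bases in WT with LPS and 795 in KO LPS library 1, and was not called in KO LPS library 2 or untreated. Another inside the gene (chr14:103053480-103054087) was called in WT LPS libraries 1 and 2 only, at 603 and 402 bases, and so was a narrow one past its end (chr14:103057820-103058088, 189 and 156 bases). These last 2 were the only member regions called in both WT and neither KO library with LPS (3.85%, against 3.17% of all regions), which is near the background. Their number was 3 without WT LPS library 1 (7.29% of all regions), 11 without WT LPS library 2 (8.36%) and 6 without KO LPS library 1 (6.02%). The 11 include the 8 regions called in WT LPS library 1 alone. The reverse pattern, KO with LPS only, was found for none of the 52 (background 2.03%). It was found for 2 without WT LPS library 1 (4.17%) and for 1 without KO LPS library 1 (6.17%).

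Upstream of the start site, 2 regions called in all 8 libraries were wider in all LPS libraries. That 30.7 kb from the gene (chr14:103015891-103016307) had 382, 400, 240 and 258 bases with LPS and 174, 212, 235 and 204 untreated, so the nearest pair, both KO, was 5 bases apart. That 9.46 kb from it (chr14:103037066-103037554) had 487, 489, 477 and 468 with LPS and 447, 434, 349 and 394 untreated. The region 13.1 kb from the gene had 640 to 736 bases with LPS and 571 to 674 untreated, with overlap. Of the remaining 6, 4 were called in 5 to 8 libraries with overlapping widths and 2 in WT LPS library 1 only. In all, Acod1 had 6864, 5922, 5598 and 4274 called bases with LPS and 3541, 4087, 3309 and 3672 without. All LPS totals exceeded all untreated ones (5664.5 ± 1071 against 3652.25 ± 326 bases, 1.55 times, SD, n = 4, exact permutation p = 0.0286, adjusted p = 0.184).

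**Figure D3:**
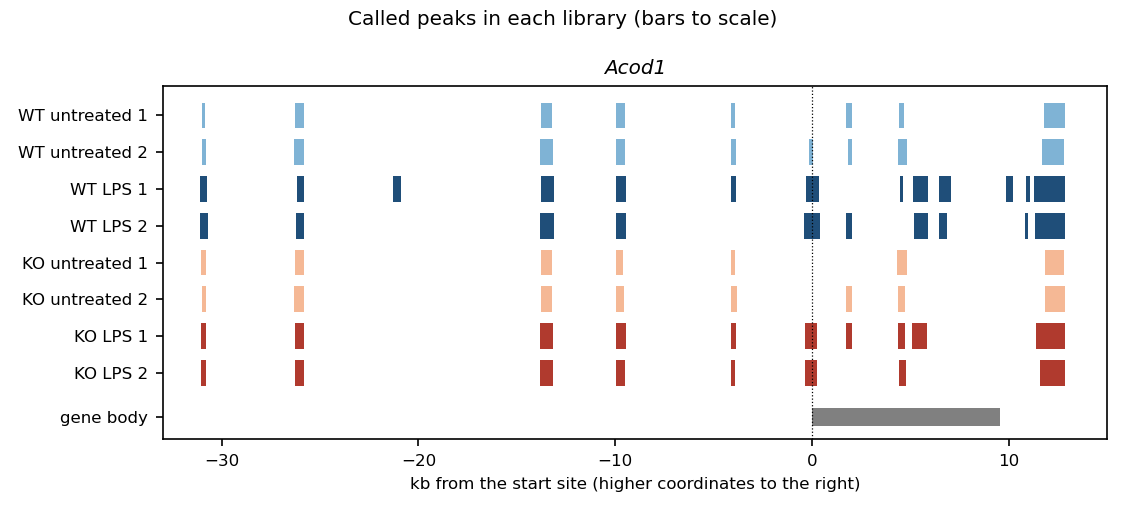
Called peaks (bars, to scale) around Acod1 in each of the 8 libraries, against distance in kb from its start site, with the gene body in grey. All 4 LPS libraries and 1 untreated library have a peak at the start site, peaks inside the gene near 5.48 kb appear in 3 LPS libraries, and the peak past the gene reaches further toward it with LPS.

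Ptgs2, the inducible cyclooxygenase (chr1:150100031-150108234, plus strand), was called at its start site in every library. That region (chr1:150099537-150100373) holds the Ptgs2 sequence printed above. It had 726, 657, 657 and 558 bases untreated and 731, 772, 786 and 804 with LPS, so all LPS values lay above, by 5 bases at the nearest pair. The LPS mean was 1.19 times the untreated one (773.25 ± 31.1 against 649.5 ± 69.1 bases, SD, n = 4, exact permutation p = 0.0286, adjusted p = 0.270). Ptgs2 stands alone over a long stretch, with its neighbours Pla2g4a and Pdc at 139 and 211 kb, and 8 of its 11 regions lay beyond its far end, 35.2 to 94.9 kb away.

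The distal region with the larger difference was chr1:150197477-150198302, 89.2 kb from the gene. It had 745 and 826 bases in WT with LPS and 602 and 633 in KO with LPS, against 205, 360 and 323 in 3 untreated libraries and no call in KO untreated library 1 (701.5 ± 103 against 222 ± 162 bases, exact permutation p = 0.0286, adjusted p = 0.270, n = 4). Further out lay another 2 regions. One (chr1:150201823-150202360) was called in both untreated WT libraries, at 350 and 531 bases, in neither WT LPS library and in KO LPS library 2, at 220. It was the only member region called untreated only in WT, and the only one called in both WT and neither KO library untreated (1.92%, against 2.23% of all regions); none showed the reverse (background 1.60%). The other (chr1:150203089-150203497), 94.9 kb away, was called with LPS in 3 libraries, at 351, 409 and 181 bases, and in no untreated one. It is the member nearest to the 100 kb limit, and the next regions beyond the limit, at 100.06 and 101.6 kb, were called in WT LPS library 1 only, at 201 and 174 bases.

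Another 5 distal Ptgs2 regions, 35.2 to 58.9 kb from the gene, were called in all 8 libraries with overlapping widths, the longest of them and of the gene being chr1:150164620-150165681 (758 to 861 bases with LPS, 742 to 1062 untreated, exact permutation p = 0.429, n = 4). The last 2 were single calls, of 242 bases in WT untreated library 1 and, inside the gene, of 371 bases in WT LPS library 1. Over all its regions Ptgs2 had 4799, 4646, 4088 and 4042 called bases with LPS and 3923, 4265, 3051 and 3409 without. Both LPS libraries exceeded both untreated ones within each genotype, but KO with LPS lay below WT untreated library 2, so the 4 against 4 overlapped (exact permutation p = 0.114, adjusted p = 0.353, n = 4). They did not overlap relative to covered sequence or without WT untreated library 2.

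Ptges, the prostaglandin E synthase (chr2:30889471-30931020, minus strand), had 4 regions, all inside the listed gene body and all upstream of the RefSeq start site (window chr2:30903248-30903547), with centres at -9.96 to -25.9 kb from it. The listed body includes a predicted transcript model that begins further upstream, and without it these regions would lie outside the gene. The longest of them would then be nearer to Tor1b (23.0 kb) than to Ptges (25.1 kb) and would not be a member. Its neighbour, described next, would stay a member, at 23.9 kb from Ptges and 25.3 kb from Tor1b. The region chr2:30927164-30927662 had 497 and 420 bases in WT with LPS and 459 and 467 in KO with LPS and was called in no untreated library. No other of the 52 regions was called in all LPS libraries and never without LPS (460.75 ± 31.7 bases, SD, n = 4, exact permutation p = 0.0286, adjusted p = 0.270).

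The neighbouring Ptges region, 737 bases away (chr2:30928400-30929978), was the longest of the 52 and went the other way. It had 1292, 1388, 1561 and 996 called bases without LPS and 258, 561, 365 and 869 with it. The untreated mean was 2.55 times the LPS one (1309.25 ± 237 against 513.25 ± 268 bases, exact permutation p = 0.0286, adjusted p = 0.270, n = 4), though the groups overlapped relative to covered sequence. With LPS, 3 of the 4 libraries had 2 narrow peaks there and WT LPS library 1 had 1, while 3 of the 4 untreated libraries had 1 broad peak. Another region (chr2:30913061-30913454) had 394 and 271 bases in WT with LPS and 220 in KO LPS library 1 and was not called elsewhere, and the last was a call of 383 bases in WT LPS library 1 alone. The Ptges total was 1044 to 1532 bases with LPS and 996 to 1561 without (exact permutation p = 0.886, n = 4). Without the predicted model, a setting chosen after seeing the data, the longest region drops out. The total was then higher in all LPS libraries, by 778 bases in the mean, and no peak was called untreated.

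Ch25h, an enzyme gene 1366 bases long (chr19:34473783-34475148, minus strand), had a region over its start site that was called in all 8 libraries, with a peak over the site itself in 7, since that of KO untreated library 1 lay wholly upstream. That region (chr19:34474762-34475827), which holds the Ch25h sequence printed above, had 659, 765, 567 and 1052 bases untreated and 845, 451, 284 and 935 with LPS. The groups overlapped (628.75 ± 311 with LPS against 760.75 ± 210 bases, exact permutation p = 0.486, n = 4). A single Ch25h region separated the treatments, chr19:34444721-34446067, which lay 27.7 kb beyond the gene, 29.8 kb downstream of the start site, and was the widest of this gene. It had 1191 and 1239 bases in WT with LPS and 1149 and 850 in KO with LPS, against 487 and 749 in untreated WT and 330 and 329 in untreated KO. The LPS mean was 2.34 times the untreated one (1107.25 ± 175 against 473.75 ± 198 bases, SD, n = 4, exact permutation p = 0.0286, adjusted p = 0.270), and the KO LPS library with 850 bases held them in 2 peaks.

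The 10 other Ch25h regions lay on the same side, from 1135 bases to 70.6 kb away, and their widths overlapped between treatments. Of these, 6 were called in all 8 libraries, among them chr19:34420192-34421445 with 949 to 1158 bases with LPS and 874 to 1157 untreated. The region chr19:34431257-34431762 was called in all 4 LPS libraries (235 to 366 bases) and in 2 untreated ones (249 and 289). The other 3 were called in 3 libraries or in WT LPS library 1 alone. The Ch25h total was 5030 to 6307 bases with LPS and 4317 to 5613 without (exact permutation p = 0.343, n = 4). Within 25 kb of the gene the sign of this difference turned, to -327 bases. Relative to covered sequence the 4 LPS totals lay above the untreated ones.

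**Figure D4:**
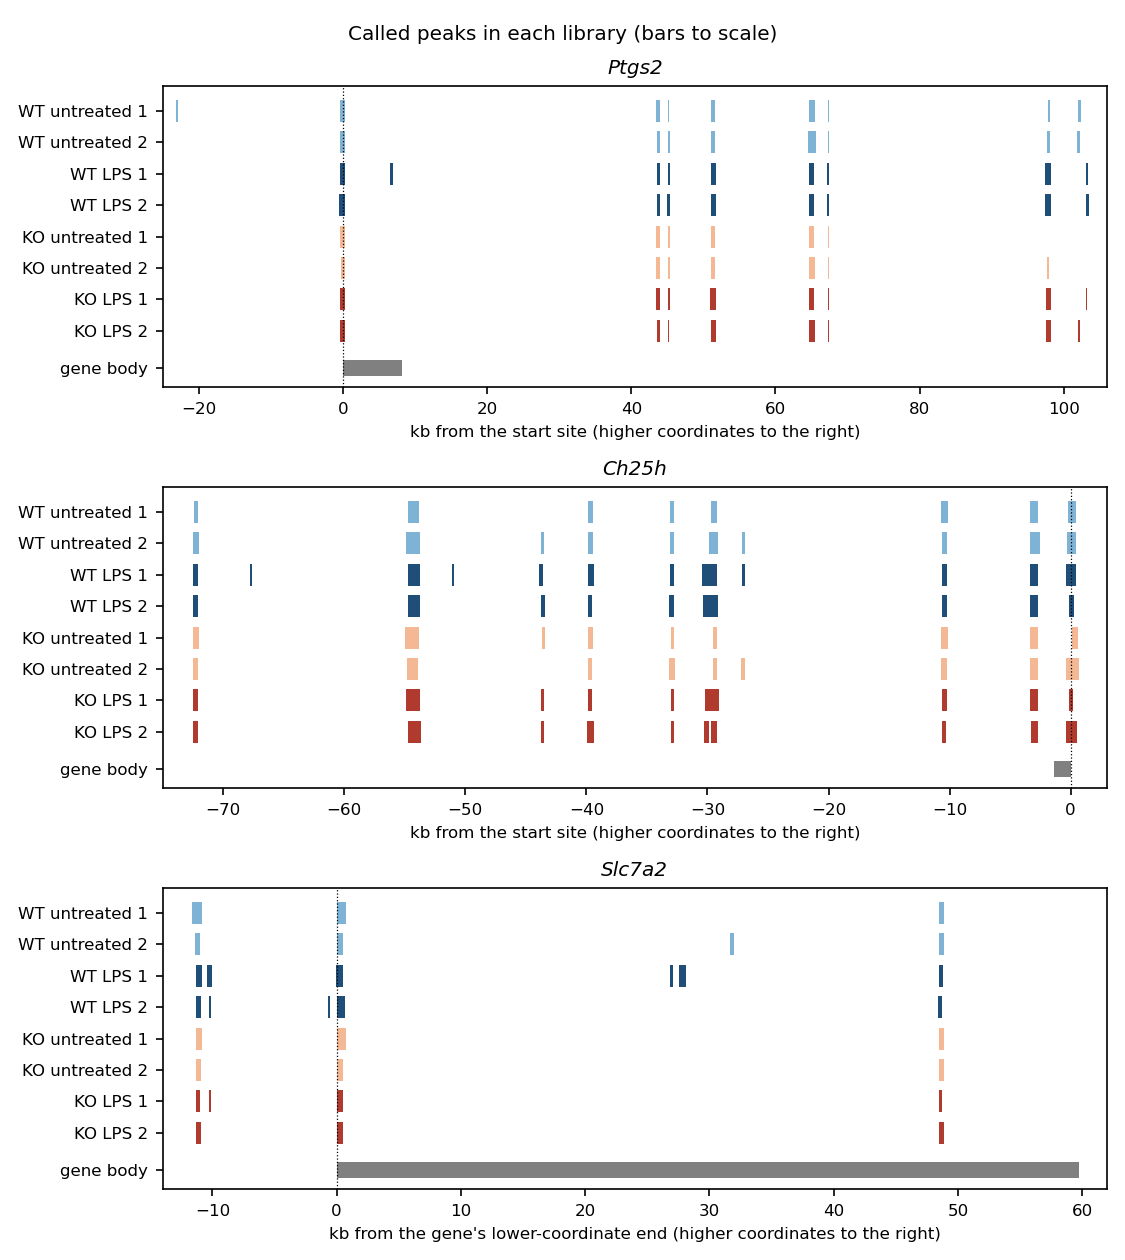
Called peaks (bars, to scale) in each of the 8 libraries around Ptgs2 and Ch25h, against distance in kb from the start site, and around Slc7a2, against distance from its lower-coordinate end, with gene bodies in grey. Most peaks recur in all 8 libraries; peaks wider in all LPS libraries stand at the Ptgs2 start site, 97.9 kb from it and 29.8 kb from the start site of Ch25h.

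By gene, Nos2 and Acod1 had more called bases in all 4 LPS libraries than in all 4 untreated ones (2 of 6, against 1.70% of the 17182 genes with a region), and none of the 6 had fewer (background 13.8%). Ptges joined them (3 of 6) when its body was ended at the start site, a setting chosen after seeing the data. That setting drops the Ptges region that was narrower with LPS and changes no other gene's body. It therefore has no like share over all genes. Called bases were lower with LPS at most genes, with a median of LPS minus untreated of -115 bases over all genes and 592 over the 6. The median gene thus stood at -0.17 on the log2 scale in bases, and at -0.01 relative to covered sequence. On the latter scale 4 of the 6 (Nos2, Acod1, Ptgs2 and Ch25h) were higher in all LPS libraries, against 7.16% of all genes, and none was lower, against 4.86%. The plot of called bases by gene shows all 8 values for each.

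**Figure D5:**
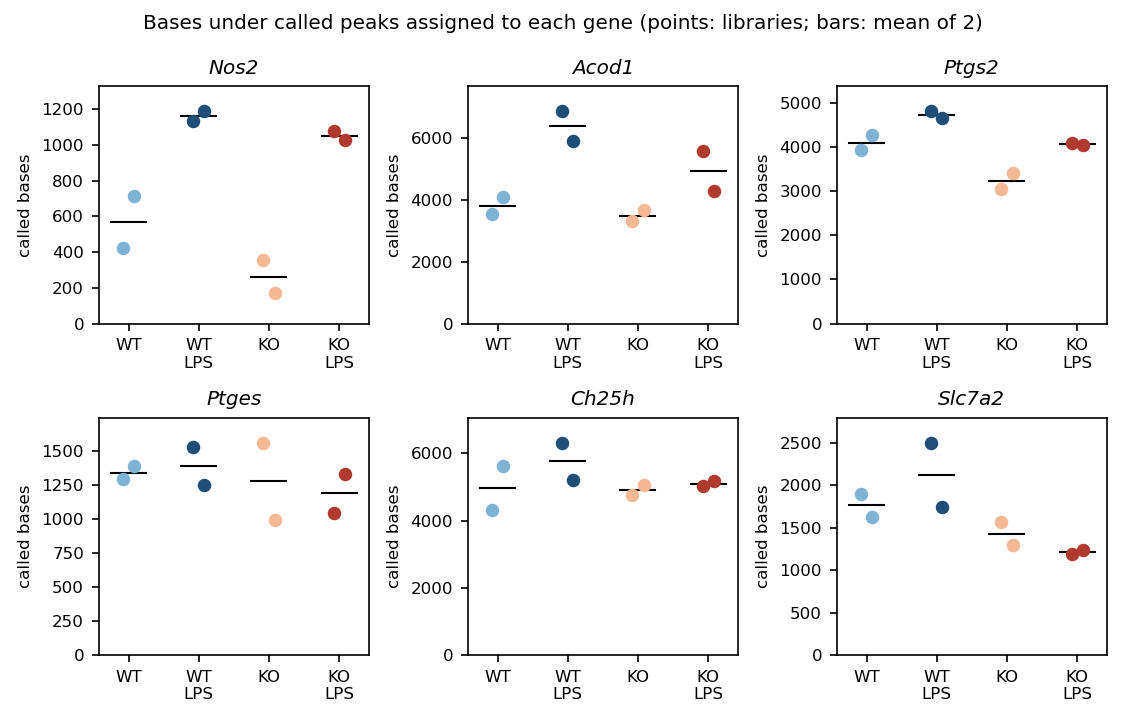
Bases under called peaks summed over the regions of each of the 6 genes (vertical axes from 0), by group; each point is a library and each bar the mean of 2. The LPS points lie above all untreated points at Nos2 and Acod1, and the groups overlap at the other 4 genes.

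Between genotypes, 1 of the 6 genes had more called bases in all 4 WT libraries than in all 4 KO libraries (background 4.06%), and none the reverse (background 0.890%). This was Slc7a2, with 1896, 1629, 2498 and 1746 in WT (untreated first) and 1570, 1292, 1194 and 1239 in KO (1942.25 ± 386 against 1323.75 ± 169 bases, SD, n = 4, exact permutation p = 0.0286, adjusted p = 0.577). The WT totals of Slc7a2 include 4 regions, of 197 to 574 bases, each called in a single WT library and in no KO library. WT libraries covered more sequence than KO libraries of the same treatment. Relative to covered sequence the Slc7a2 totals overlapped, as they did when peaks under 250 bases were left out. For the other 5 genes the exact permutation p was 0.0857 to 0.486 (adjusted p = 0.714 to 0.944, n = 4). At Nos2 the WT mean exceeded the KO mean by 207 bases, at Acod1 by 890, at Ptgs2 by 761, at Ptges by 132 and at Ch25h by 358, with overlapping values in each.

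Other genes of the same pathways gave shares in called bases close to those of all genes. The counts for these lists are in bases only, not relative to covered sequence, which was lower with LPS. On that relative scale 7.16% of all genes had more and 4.86% fewer. Of 50 genes on 4 lists (nitric oxide and arginine, itaconate and the citric acid cycle, prostaglandins and leukotrienes, oxysterols), 49 had a region, and 1 of these had more called bases in all LPS libraries (2.04%) and 9 had fewer (18.4%), beside 1.70% and 13.8% of all genes. The former was Arg2, a mitochondrial arginase, with 1300, 1383, 1539 and 1362 bases with LPS against 1100, 1065, 1093 and 1145. Among the 9 were Tbxas1, thromboxane synthase, with 7585 to 8743 with LPS against 9573 to 10272, and Sdhb, a subunit of succinate dehydrogenase, with 1378 to 1603 against 2417 to 3354. Abca1, which exports cholesterol, Suclg2, Alox5, Clybl and Alox5ap were also among them. Ptgs1, the constitutive cyclooxygenase, had 2886 to 3250 with LPS against 3450 to 4006 untreated. By list, 1 of 12 nitric oxide and arginine genes had more (8.33%) and none fewer. Fewer were found for 3 of 13 itaconate genes (23.1%), 5 of 14 prostaglandin and leukotriene genes (35.7%) and 1 of 10 oxysterol genes (10.0%). Whether a list differs from all genes (13.8% fewer) was not tested. Each of these 10 genes had an exact permutation p of 0.0286 and an adjusted p of 0.184 (n = 4), so none passed.

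The genes whose called bases followed each member most closely over the 8 libraries, among 8691 named genes with at least 3 regions, were Rala and Traf2 for Nos2 (Pearson r = 0.964 and 0.963), Ptprc and Metap1 for Acod1 (0.982 and 0.980), and Cemip2 and Foxn2 for Ptgs2 (0.985 and 0.976). They were Agtrap and Lamp1 for Ptges (0.986 and 0.966), Cog6 and Tmem171 for Ch25h (0.979 and 0.933), and Rac2 and Ppp2r2a for Slc7a2 (0.978 and 0.966). These values describe the best of many genes over 8 libraries that share list lengths and treatment, and carry no test.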

How the data were processed

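ATAC-seq libraries of 8 macrophage samples were grouped by the labels into 4 groups of 2. The authors deposited peak positions alone (chromosome, start, end), in a separate list for each library, with no count or score. The submitters' processing notes name MACS2 2.1.1, Picard, Bowtie2 2.3.0 and bcl2fastq 2.17.1.14, and build GRCm38 (mm10). Which settings, threshold, duplicate handling or cut-site shift were used is not stated there, and these decide which weak peaks were listed and how wide a peak is. Starts were read as BED positions and are printed counting from 1.

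Peaks on 21 chromosomes were merged with Python 3.11.15 (numpy 2.4.6, pandas 2.3.3), and each region went to its nearest gene body among 21887 in the RefSeq GRCm38.p6 table. Widths per region and called bases per gene were compared by two-sided exact permutation tests over 70 arrangements, with Benjamini-Hochberg adjustment over all regions or genes. Merging was checked against bedtools 2.31.1, and the test on simulated data.

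Member genes, gene lists and tests were chosen with earlier results of these data known. The motifs were chosen after the files were seen. The naming rule took the 6 genes, every region that differed by call or width, the longest region of each gene, list genes whose groups did not overlap (at most 8 per direction) and the 2 most correlated genes. Alternatives were merging within 200 bases, 50% cover, equal or shorter lists of the widest peaks, a 25 kb limit, scaling to covered sequence, a replicate block, each library left out and, chosen after seeing the data, peaks under 250 bases left out and the Ptges body ended at its start site.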

Additional observations from a re-analysis of the deposited data

How the results depend on the processing

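Each count is given with the share of all regions or genes under the same setting where this was computed. Leaving out a library cannot lower a count of regions or genes whose groups do not overlap, and cannot move a WT count through a KO library. Regions called with LPS only in WT numbered 12 instead of 7 when a peak had to cover 50% of the region (4.38% of all regions), and untreated-only regions in WT numbered 3 instead of 1 (7.24%). With that cover 6 regions differed by genotype instead of 3, and no gene (0) instead of 1. Leaving out peaks under 250 bases, chosen after seeing the data, gave 2 untreated-only regions in WT (5.86%), 6 regions and 0 genes that differed by genotype. Lists of equal length gave 2 untreated-only regions in WT (4.01%), as did lists of 27013 peaks (3.99%). The latter gave 6 wider regions instead of 10 (2.52%), 1 narrower instead of 2 (6.68%) and 0 genes with more in WT (3.06%). Within 25 kb there were 6 wider regions among 32 members (3.01%) and 0 untreated-only regions in WT (5.06%). There was 1 gene with more called bases instead of 2 (1.77% of genes), since the Nos2 difference of 188 bases no longer separated the groups. Scaling to covered sequence gave 4 genes with more (7.16%) and 0 narrower regions (3.24%). Ending the Ptges body at its start site, also chosen after seeing the data, left 51 members and 1 narrower region (7.59%). Leaving out each library in turn gave 10 to 15 wider regions (at most 4.48% of all regions) and 2 to 4 narrower ones (9.84% to 10.5%), 7 to 15 regions called with LPS only in WT (3.96% to 8.61%) and 4 to 8 in KO (2.56% to 6.98%), 1 to 3 untreated-only regions in WT (5.06% to 11.4%) and 0 to 1 in KO, and 3 to 12 regions and 1 to 3 genes that differed by genotype. The highest of these came without WT LPS library 2 for calls in WT (15) and by genotype (12), and without KO LPS library 2 for calls in KO (8). Of the 12, 11 were called in WT only with LPS (8.36%) and 1 in WT only untreated (2.23%). The 11 include the 8 of WT LPS library 1 alone. In WT only untreated there were 5 (6.69%) without WT untreated library 1 and 3 (5.03%) without KO untreated library 2. With LPS, 3 were in WT only (7.29%) and 2 in KO only (4.17%) without WT LPS library 1. Without KO LPS library 1 these were 6 (6.02%) and 1 (6.17%). Without WT untreated library 1, Ch25h and Ptgs2 joined Slc7a2 (3 genes, 5.98%). Merging peaks within 200 bases changed none of these counts.

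For 3 genes the difference in called bases turned sign. That of Ptges was -18.2 bases, 4.34 bases per Mb covered when scaled, 778 with its body ended at the start site, and -123 to 65.7 with a library left out, above 0 without WT untreated library 2 (8.00), KO untreated library 1 (65.7) or KO LPS library 1 (64.1). That of Ch25h was -327 within 25 kb instead of 493. That of Slc7a2 was 72.5 bases, -96.0 with 50% cover, -184 without peaks under 250 bases, and -204 to 231 with a library left out, below 0 without WT LPS library 1 (-204) or KO untreated library 2 (-29.1). The cause was not tested.

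With a replicate block (differences within the same genotype and replicate number), 11 regions were wider (4.97% of all regions) and 5 narrower (15.9%), and 3 genes had more called bases (4.06% of genes). The added ones were an Acod1 region 13.1 kb from the gene, wider in every pair, single regions of Ptgs2 (chr1:150143483-150144065), Ch25h (chr19:34464397-34465047) and Slc7a2 (chr8:40850713-40851515), narrower in every pair, and Ptgs2 among the genes. Titles of an untreated and an LPS library share a code, but no label says that it marks an animal, and deviations of equal-numbered libraries correlated at 0.197 in WT and 0.147 in KO across regions. Depth is unknown, so weak regions could be missed in any list, and no p-value passed adjustment in this design.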
